A study of Homo sapiens with 18 samples.

Results

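The 77 genes described here encode proteins of the mitochondrial ribosome. They were chosen by name, as the protein-coding genes whose symbol starts with MRPL or MRPS followed by a number and at most 1 letter, and all 77 were listed among the 23604 gene rows of the RNA-Seq tables. The cells were MCF10A-Er-Src, an immortalised line of human breast epithelium that carries a v-Src kinase fused to part of the oestrogen receptor, so that tamoxifen switches the kinase on and transforms the culture. The 4 groups were cells without tamoxifen given DMSO, the solvent (NT), the same cells given triptolide at 0.125 µM for 4 h (NT + TPL), tamoxifen-treated cells given DMSO (TAM), and tamoxifen-treated cells given the same dose of triptolide for 4 h (TAM + TPL). Triptolide (TPL) is a small molecule that binds XPB, a subunit of the general transcription factor TFIIH, and lowers transcription by RNA polymerase II (RNAPII). Each group had 2 poly-A RNA-Seq libraries from independent cultures, and 1 list of RNAPII ChIP-Seq peaks over transcription start sites (TSSs). All groups share the same engineered line, so the values describe that line alone, and the labels of the tamoxifen-treated samples read only T, which was taken as TAM from the study's methods.

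Mitochondria keep their own ribosome, which translates the few proteins that the mitochondrial genome encodes, all of them parts of the respiratory chain and the ATP synthase. The ribosomal RNAs come from mitochondrial DNA, whereas every protein of the ribosome is encoded in the nucleus, transcribed by RNAPII, translated in the cytosol and imported. The small subunit decodes the mRNA and the large subunit joins the amino acids. Part of the proteins have a counterpart in the bacterial ribosome, and the others were gained in the mitochondrial lineage.

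By this division 30 genes encode large-subunit proteins with a bacterial counterpart, 21 large-subunit proteins found only in mitochondria, 16 small-subunit proteins with a bacterial counterpart and 10 small-subunit proteins found only in mitochondria. MRPS30 and MRPS18A stand with the large subunit, where their proteins are placed despite their names. MRPS36 is absent because the gene table names it KGD4, a part of an enzyme complex of the citric acid cycle.

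The libraries held between 7461309 and 8349448 expected counts, which are the reads per gene estimated by RSEM. The keratins and other markers of the breast epithelial line were over 1 FPKM in every library for 7 of 8 genes, and 8 markers of other cell types summed to between 3.31 and 25.09 FPKM per library, against 1740.64 to 14756.95 for the epithelial markers. Markers moved with the treatments. TP63, the remaining epithelial marker, had 13.16 to 24.19 FPKM without and 0.28 to 0.89 with TPL. KRT5 had 6249.55 and 5776.13 in NT and 475.12 and 434.04 in TAM + TPL libraries. ACTA1, of the other cell types, had 0.32 to 0.75 without and 8.33 to 17.11 with TPL. FPKM scales the fragments of a gene to its transcript length and to the mapped fragments of the library, so it can be compared between genes. The 77 genes took 0.335 ± 0.0288% of the counts of NT libraries and 0.277 ± 0.0206% of those with TPL, and 0.348 ± 0.015% of the counts of TAM libraries and 0.243 ± 0.0085% of those with TPL (SD, n = 2 each). Each TPL library had a lower share than each DMSO library.

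The mRNAs of the mitochondrial ribosome were well above the typical gene of these cells. The median member had 29.27 and 24.31 FPKM in NT cells against 23.17 and 25.42 with TPL, while TAM cells had 27.77 and 29.9 against 19.74 and 22.3 with TPL, and the median of all genes with a read was between 3.17 and 4.15 FPKM. The level of the median member lay between the 84.9th and 88th percentile of the genes with a read in each library. Most of these proteins stand in the particle in equal numbers. The mRNA levels of their genes spanned a wide range within every library.

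MRPL4, whose protein lines the tunnel through which the nascent chain leaves, was the most abundant in NT cells, with 146.74 and 126.56 FPKM. MRPS15, a small-subunit protein that binds the ribosomal RNA, followed with 122.37 and 99.49 FPKM, and MRPS12, a protein of the decoding centre, with 108.49 and 92.94 FPKM. Both NT libraries of MRPL4 were above both of MRPS15, whereas those of MRPS15 and MRPS12 overlapped, so that this pair did not differ beyond the spread of its replicates. At the other end stood MRPL48 with 8.08 and 2.6 FPKM, MRPS25 with 2.47 and 2.27, and MRPL40 with 1.39 and 2.58. These 3 belong to 8 members whose reads were split by the authors' tables between the gene's own row and rows of single RefSeq transcripts. The other rows held 76.9 to 87.1% of the reads of MRPS25, 37.2 to 100% of those of MRPL48 and 0 to 47.9% of those of MRPL40, depending on the library, so their low levels are those of their own rows.

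The first question was how a block of TFIIH by TPL changed these mRNAs. In NT cells 26 of the 77 genes (33.8%) were lower with TPL and 4 (5.19%) were higher at an adjusted p of at most 0.05 by edgeR's quasi-likelihood test, against 19.8% lower and 17.2% higher among the 16948 genes tested. In TAM cells 37 (48.1%) were lower and 0 higher, against backgrounds of 18.6% lower and 14.3% higher, and 0 members were higher there at an unadjusted p under 0.05 (21.0% of all genes) or with DESeq2 (18.1%, with DESeq2 shares throughout taken over the genes to which it gave an adjusted p). The median log2 fold change of the members was -0.28 in NT and -0.62 in TAM cells, where that of all genes tested was 0.09 and 0.05. These changes are relative to the rest of the transcripts sequenced, and a fall shared by every mRNA would not show in them. In bulk libraries fewer cells with an mRNA and less of it per cell cannot be told apart either. Over all genes tested the change with TPL had a Spearman's rho of -0.39 with the mean FPKM without TPL in NT cells. In TAM cells it was -0.45, and over the members the values were -0.03 and -0.20. The level and the change share the libraries without TPL, and noise in those alone can make such a rho negative. The background holds genes of every level, and the members were not compared with genes of their own level. The part of level in these falls was not tested.

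Under the stricter thresholds of the study, which ask for an adjusted p up to 0.001 together with a change of 1.2 or more on the log2 scale, 2 members were lower in NT and 3 in TAM cells and 0 were higher in either. The background was 2.71% lower and 1.22% higher in NT, and 2.04% lower and 0.844% higher in TAM cells. The 2 members in NT cells are 2.6% of the family, close to that background. With DESeq2 the strict falls were 6 in NT (7.79%, all genes 9.43%) and 11 in TAM cells (14.3%, all genes 8.22%) and the strict rises 0, against 5.64% and 5.22% of all genes, and with replicate number as a block there were 0 falls in either state. The genes are therefore described here by their values. With 1 library left out, the median of the members minus that of all genes lay between -0.54 and -0.26 in NT cells. In TAM cells it lay between -0.73 and -0.58. Fewer members passed the test in NT cells in each such fit, and in TAM cells in those without a TAM or TAM + TPL library. A lone library was there assumed to vary like the other groups, and the shares of all genes in these fits were not counted.

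MRPS26, a small-subunit protein found only in mitochondria, had the largest fall. Its level was 32.77 and 25.98 FPKM in NT and 6.1 and 6.44 with TPL, and TAM cells had 28.93 and 33.01 and, with TPL, 6.38 and 7.73. Both TPL libraries were far below both DMSO libraries in each state, and the replicates of a group lay close to each other. The log2 fold change was -2.23 (SE 0.214, adjusted p = 0.000664 by edgeR) in NT and -2.18 (SE 0.213, adjusted p = 0.000798) in TAM cells, a level 4.69-fold and 4.53-fold lower.

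MRPS35, also a small-subunit protein without a bacterial counterpart, had 31.02 and 32.23 FPKM in NT libraries and 9.63 and 8.87 once TPL was added. TAM libraries had 35.45 and 39.72 FPKM, and 12.26 and 11.61 with TPL. The groups were again well apart, with log2 fold changes of -1.78 (SE 0.137, adjusted p = 0.000348 by edgeR) and -1.71 (SE 0.135, adjusted p = 0.000419). MRPS26 and MRPS35 passed an adjusted p of 0.05 in both states under all 20 alternatives.

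MRPS2, the small-subunit protein with a counterpart in bacteria near the mRNA exit, had 78.78 and 74.02 FPKM in NT and 36.44 and 32.9 in NT + TPL libraries. TAM libraries had 61.76 and 55.15 FPKM, and 23.28 and 22.37 with TPL. The log2 fold change of -1.41 in TAM cells (SE 0.127, adjusted p = 0.000607 by edgeR) passed the strict thresholds, whereas that of -1.15 in NT cells (SE 0.125, adjusted p = 0.000994) stayed short of the fold required.

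3 large-subunit genes completed the largest falls. MRPL1, whose bacterial counterpart forms the mobile stalk by which spent tRNA leaves, fell from 13.17 and 8.85 FPKM without to 3.33 and 3.48 FPKM under TPL in NT cells (log2 change -1.69, SE 0.28, adjusted p = 0.00462 by edgeR) and from 12.25 and 13.42 to 3.42 and 2.96 in TAM cells (-2.05, SE 0.283, adjusted p = 0.00259). MRPS30, found only in mitochondria, fell from 23.89 and 28.93 FPKM without to 10.53 and 7.06 FPKM under TPL in NT cells (log2 change -1.60, SE 0.216, adjusted p = 0.00217) and from 26.1 and 28.22 to 8.26 and 9.98 in TAM cells (-1.62, SE 0.216, adjusted p = 0.00229). MRPL34, which has a bacterial counterpart, fell from 77.34 and 58.36 FPKM without to 28.51 and 22.51 FPKM under TPL in NT cells (log2 change -1.42, SE 0.199, adjusted p = 0.00247) and from 62.06 and 68.51 to 17.43 and 21.14 in TAM cells (-1.81, SE 0.202, adjusted p = 0.00123). In each of the 3 genes the DMSO and TPL libraries did not overlap in either state.

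**Figure D1:**
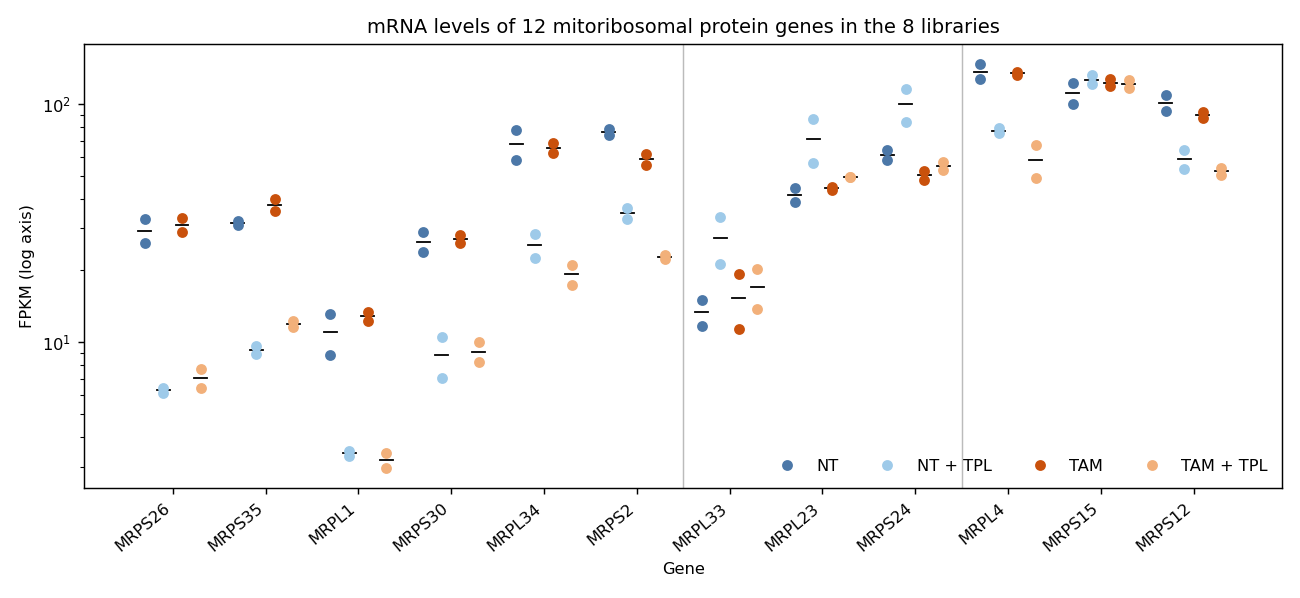
FPKM on a log axis of 12 genes in the 8 libraries, with 2 dots per group (1 per library) and a bar at their mean. From left to right are the 6 genes with the falls described in the text, then MRPL33, MRPL23 and MRPS24, and then the 3 most abundant genes, of which MRPL4 and MRPS12 were lower with TPL and MRPS15 held between 99.49 and 131.88 FPKM.

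The promoters of the 3 genes with the largest falls in NT cells are shown because transcription of these genes starts there. The sequences are RefSeq windows on GRCh38.p14, from 250 bases before the annotated start to 50 bases from it, printed in the direction of the gene. Capitals mark the exact letters searched for the ETS/GABP (CCGGAAG), NRF1 (GCATGCGC) and YY1 (AAGATGGCG) motifs on either strand. MRPS26 (chr20:3045802-3046101, plus strand), MRPS35 (chr12:27710582-27710881, plus strand) and MRPL1 (chr4:77862580-77862879, plus strand) read as follows.
MRPS26: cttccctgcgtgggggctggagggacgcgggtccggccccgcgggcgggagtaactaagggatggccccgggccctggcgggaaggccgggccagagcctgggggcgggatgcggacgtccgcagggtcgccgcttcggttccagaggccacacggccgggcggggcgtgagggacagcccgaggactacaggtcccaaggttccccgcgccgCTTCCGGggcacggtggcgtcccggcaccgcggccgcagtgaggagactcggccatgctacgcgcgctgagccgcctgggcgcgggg
MRPS35: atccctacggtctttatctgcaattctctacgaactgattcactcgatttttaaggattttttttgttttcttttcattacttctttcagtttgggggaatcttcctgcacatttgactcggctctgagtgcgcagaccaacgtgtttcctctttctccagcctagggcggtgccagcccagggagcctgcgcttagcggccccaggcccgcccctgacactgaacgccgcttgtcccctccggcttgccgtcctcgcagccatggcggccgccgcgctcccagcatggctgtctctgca
MRPL1: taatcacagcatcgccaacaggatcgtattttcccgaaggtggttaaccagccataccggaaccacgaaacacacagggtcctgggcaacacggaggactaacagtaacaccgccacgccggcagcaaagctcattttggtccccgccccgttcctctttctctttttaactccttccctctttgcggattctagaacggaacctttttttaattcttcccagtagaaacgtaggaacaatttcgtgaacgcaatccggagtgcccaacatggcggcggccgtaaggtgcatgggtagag
The MRPS26 window held the ETS/GABP letters once, on the reverse strand, from base -37 counted from the start. The windows of MRPS35 and MRPL1 held none of the 3 motifs as spelled.

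Few mRNAs of the mitochondrial ribosome rose with TPL, and those that passed the test did so in NT cells. MRPL23, a large-subunit protein with a bacterial counterpart at the tunnel exit, had 44.39 and 38.76 FPKM in NT and 56.27 and 86.46 in NT + TPL libraries (log2 fold change 0.78, SE 0.233, adjusted p = 0.0371 by edgeR). MRPS24, a small-subunit protein with a bacterial counterpart, had 63.76 and 57.98 FPKM and, with TPL, 84.01 and 114.95 (log2 fold change 0.71, SE 0.196, adjusted p = 0.0289). The TPL libraries were above the DMSO libraries, but the second NT + TPL replicate was much higher than the first in both genes.

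MRPS18B rose from 18.16 and 18.17 to 25.24 and 25.42 FPKM (log2 fold change 0.47, SE 0.132, adjusted p = 0.0296), with replicates almost on top of each other. MRPL24, a large-subunit protein with a bacterial counterpart that was singled out after its values were seen, rose from 87.28 and 66.11 to 111.9 and 119.57 FPKM (log2 fold change 0.60, SE 0.167, adjusted p = 0.0306). Across the 20 alternatives MRPL23 passed an adjusted p of 0.05 in 10 and MRPS24 in 11. With 1 library left out the log2 fold changes in NT cells lay between 0.41 and 1.08 for MRPL23. For MRPS24 they lay between 0.44 and 0.95. Fewer rises passed the test in all of these fits except that without NT + TPL replicate 1. This held also without a library of tamoxifen-treated cells, which are not in the groups compared, so the loss cannot be assigned to single libraries. MRPL33, the shortest transcript of the family, had the largest log2 fold change, 1.01 (SE 0.401, adjusted p = 0.0881), from 14.97 and 11.65 FPKM in NT and 21.28 and 33.45 in NT + TPL. MRPL43 (0.69, SE 0.292, adjusted p = 0.103) and MRPS21 (0.68, SE 0.274, adjusted p = 0.0906) came next and did not pass the test.

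In TAM cells the corresponding log2 fold changes were 0.11 (SE 0.233) for MRPL23, 0.08 (SE 0.198) for MRPS24, 0.15 (SE 0.131) for MRPS18B and 0.12 (SE 0.167) for MRPL24. The largest positive values there were 0.69 (SE 0.303, adjusted p = 0.123 by edgeR) for MRPS25, 0.54 (SE 0.275, adjusted p = 0.172) for MRPS21, 0.46 (SE 0.269, adjusted p = 0.227) for MRPS14, 0.38 (SE 1.51, adjusted p = 0.865) for MRPL48 and 0.22 (SE 0.287, adjusted p = 0.575) for MRPS6. MRPS25 and MRPL48 are among the genes with split rows, and with all rows of a gene summed their values were 0.44 (SE 0.173, adjusted p = 0.0601) and -0.20 (SE 0.214, adjusted p = 0.471).

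The promoters of MRPL33 (chr2:27771469-27771768, plus strand) and MRPS24 (chr7:43869468-43869767, minus strand), 2 of the 3 genes with the largest positive change in NT cells, are given for comparison with those of the falls.
MRPL33: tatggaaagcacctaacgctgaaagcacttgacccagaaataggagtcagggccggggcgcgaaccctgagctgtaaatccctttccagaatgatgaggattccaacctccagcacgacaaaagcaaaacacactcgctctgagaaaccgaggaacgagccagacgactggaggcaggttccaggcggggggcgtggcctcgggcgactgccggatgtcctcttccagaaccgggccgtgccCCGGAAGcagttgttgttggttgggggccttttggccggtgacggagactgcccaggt
MRPS24: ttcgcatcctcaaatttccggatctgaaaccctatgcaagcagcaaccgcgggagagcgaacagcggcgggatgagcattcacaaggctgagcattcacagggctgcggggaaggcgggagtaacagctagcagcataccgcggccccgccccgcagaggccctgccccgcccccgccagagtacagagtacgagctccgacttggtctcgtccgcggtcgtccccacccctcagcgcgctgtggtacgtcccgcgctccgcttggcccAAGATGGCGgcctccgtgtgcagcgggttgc
MRPL33 had the ETS/GABP letters from base -8, and MRPS24 the YY1 letters from base 20, just past the start. These 2 windows and the 3 above differ in which letters they hold, and a match is no evidence of a bound factor.

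Every class held genes that fell, in shares that differed. In NT cells 12 of 30 large-subunit genes with a bacterial counterpart were lower (40%), 4 of 21 found only in mitochondria (19%), 4 of 16 small-subunit genes with a bacterial counterpart (25%) and 6 of 10 found only in mitochondria (60%), beside the 19.8% of all genes. In TAM cells these counts were 19 of 30 (63.3%), 8 of 21 (38.1%), 4 of 16 (25%) and 6 of 10 (60%), beside 18.6% of all genes. The small-subunit genes with a bacterial counterpart were thus near the background in both states, and the large-subunit genes found only in mitochondria in NT cells. The median log2 fold changes in TAM cells were -0.79, -0.41, -0.30 and -0.76 in the same order, and those in NT cells -0.44, -0.09, 0.06 and -0.51. The differences between the classes were not tested. Within each class the genes spread widely, from -2.18 to 0.69 among the small-subunit genes found only in mitochondria in TAM cells.

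**Figure D2:**
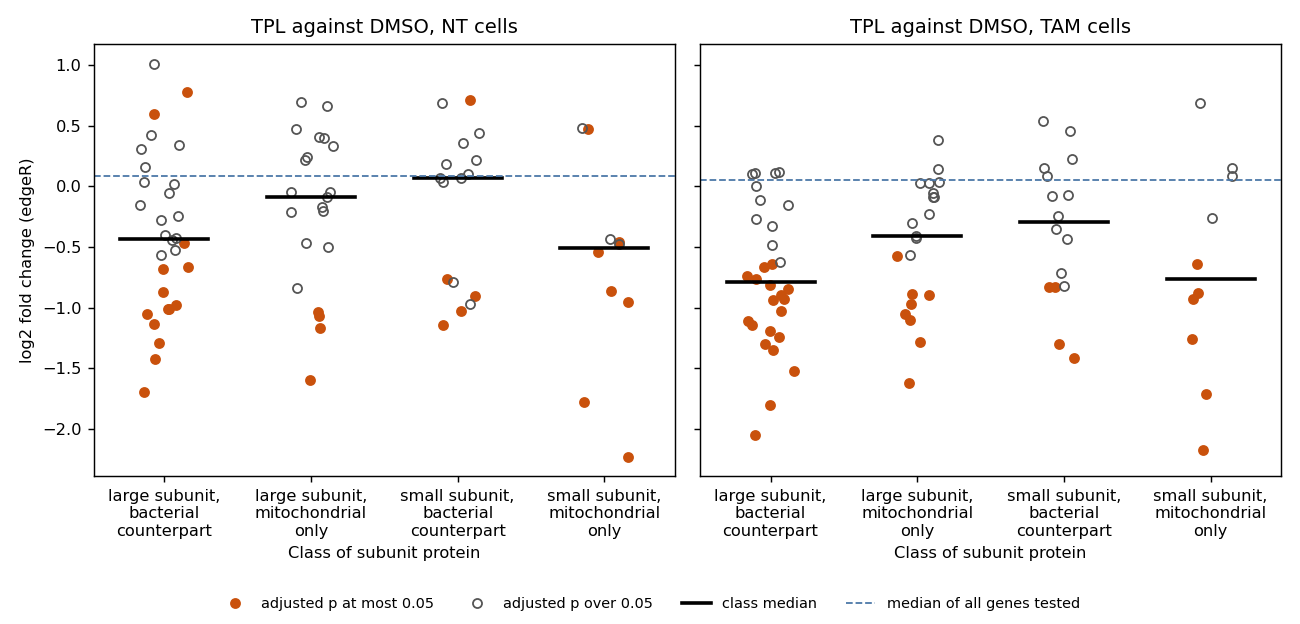
log2 fold change with TPL of each of the 77 genes by class, in NT (left) and TAM cells (right). Filled dots passed an adjusted p of 0.05, open dots did not, black bars are class medians, and the dashed line is the median of all genes tested. All class medians lie below the dashed line in both panels, and no filled dot in TAM cells lies above 0.

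The spread of the 77 levels within a library, as the SD of log2(FPKM + 1), was 1.11 and 1.05 in NT and 1.27 and 1.25 in NT + TPL libraries, while TAM libraries had 1.07 and 1.07 without TPL against 1.13 and 1.03 with it. Both NT + TPL libraries were above both NT libraries, whereas those of TAM and TAM + TPL overlapped. These SDs include the 8 genes with split rows and were not computed without them. Among these MRPL48 had 0 FPKM in its own row in NT + TPL replicate 1 and 9.9 in replicate 2. Among the abundant genes, the log2 fold change of MRPS15 was 0.19 (SE 0.154, adjusted p = 0.372 by edgeR) in NT and -0.07 (SE 0.154, adjusted p = 0.754) in TAM cells.

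A scaling factor moves all genes almost alike, so it can hardly change the distance of the members' median from that of all genes. This distance was -0.37 for NT and -0.67 for TAM cells with edgeR's TMM factors. Over the other settings that keep all libraries it lay between -0.47 and -0.33 in NT cells, and between -0.73 and -0.57 in TAM cells. The median itself moved with the scaling, together with that of all genes, which was 0.31 in NT and 0.29 in TAM cells with upper quartile scaling and -0.26 and -0.07 with GAPDH as the reference. Without the 8 members with split rows, 26 of 69 were lower in NT and 35 in TAM cells, and the medians were -0.43 and -0.64.

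Whether the mRNAs responded alike in the 2 states was asked next. All 26 genes lower in NT cells were also lower in TAM cells, which is 100% of the first list and 70.3% of the second. Of all genes tested 2401 were lower in both states, which is 71.6% of the NT list and 76% of the TAM list. The 2 contrasts with TPL have no library in common, and across the 77 genes their log2 fold changes had a Pearson's r of 0.854 and a Spearman's rho of 0.852, where all 16948 genes had 0.593 and 0.752. Genes are not independent replicates, and the points of each axis share their 4 libraries. The log2 fold changes of all genes had SDs of 1.92 in NT and 1.86 in TAM cells, against 0.69 and 0.63 for the members. These correlations were not computed among genes of the members' level. The changes were more negative in TAM cells for 60 of 77 members (77.9%, against 51.2% of all genes), with a median difference of -0.25, where the median of all genes was -0.02. With GAPDH as the reference these medians were -0.03 and 0.22. The distance between the members and all genes was -0.24, and it was -0.15 without NT replicate 2 and -0.34 without NT replicate 1.

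No single member passed the test of that difference, the interaction of TPL with the state. By edgeR 0 members had a difference at an adjusted p of 0.05, with a background of 0.0885% of genes higher and 0.0767% lower, and DESeq2 also gave 0 (1.88% and 1.67% of all genes). At an unadjusted p under 0.05, 1 member was more positive (1.3%, all genes 5.03%) and 4 were more negative in TAM cells (5.19%, all genes 5.59%), which is not above the background. The 11 genes lower in TAM cells without passing the test in NT cells are thus not shown to differ between the states. Among them MRPL14 and MRPL20 have split rows. With all rows summed MRPL14 passed in NT cells too (-0.89, SE 0.175, adjusted p = 0.00175 by edgeR) beside TAM cells (-1.28, SE 0.179, adjusted p = 0.000214). MRPL20 still passed in TAM cells only (adjusted p = 0.124 in NT and 0.0221 in TAM). The smallest p was that of MRPS34, a small-subunit protein found only in mitochondria, which had 75.54 and 62.35 FPKM in NT cells against 50.03 and 45.25 with TPL, while TAM cells had 69.48 and 65.47 against 29.78 and 28.49 with TPL. Its level fell in both states, with log2 changes of -0.54 (SE 0.143, adjusted p = 0.0251 by edgeR) in NT and -1.26 (SE 0.146, adjusted p = 0.00137) in TAM cells, and the difference was -0.72 (SE 0.203, adjusted p = 0.294).

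MRPL43, found only in mitochondria, had the largest difference, -1.26 (SE 0.414, adjusted p = 0.366), from 35.15 and 26.23 FPKM in NT cells against 45.25 and 48.25 with TPL, while TAM cells had 33.24 and 36.07 against 14.69 and 27.76 with TPL. The 2 TAM + TPL libraries were far apart, and a second row of the gene held up to 37.5% of its counts. With both rows summed the difference was -1.05 (SE 0.27, adjusted p = 0.119) and the change in TAM cells -0.77 (SE 0.193, adjusted p = 0.00764). MRPL38 (-0.68, SE 0.236, adjusted p = 0.39) and MRPS25 (1.12, SE 0.429, adjusted p = 0.433) followed.

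**Figure D3:**
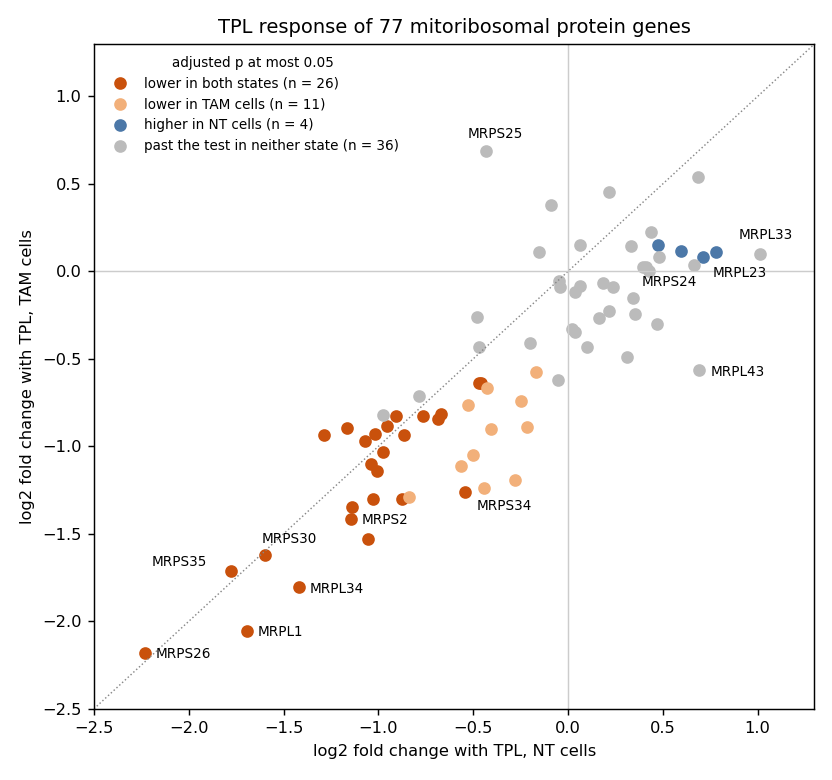
log2 fold change with TPL in NT cells (x axis) against TAM cells (y axis), 1 dot per gene, with the dotted line where both are equal. The 26 genes lower in both states lie along the line at the lower left, the 11 lower in TAM cells lie under it, and the 4 higher in NT cells sit near 0 on the y axis.

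The length of the transcript moved with some of these differences. Across the members the difference between the 2 NT replicates had a Spearman's rho of 0.58 with transcript length, that between the 2 NT + TPL replicates of -0.49, and those between the TAM and the TAM + TPL replicates of -0.24 and -0.07. The difference of the TPL effects had a rho of 0.38 with length, and the change with TPL had -0.23 in NT and -0.04 in TAM cells, all over 77 genes. Over all genes tested these values were 0.30, -0.23, -0.15, 0.03, 0.21, -0.16 and -0.05. The 4 genes that rose in NT cells ranged in length from 715 to 1536 bases, and the part of length in the results was not tested.

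The effect of transformation alone was compared without TPL. Between TAM and NT cells with DMSO 0 members were higher and 0 lower at an adjusted p of 0.05 by edgeR, where the background was 3.46% higher and 3.39% lower. At an unadjusted p under 0.05 there were 3 higher (3.9%, all genes 9.51%) and 2 lower (2.6%, all genes 10.4%). DESeq2 gave 2 higher (2.6%, all genes 6.27%) and 1 lower (1.3%, all genes 6.16%) at an adjusted p of 0.05. All these shares were below those of all genes. The median log2 fold change was 0.13, with 52 genes above 0 and 25 below, where the median of all genes was -0.03. With GAPDH as the reference the members' median was -0.33 and that of all genes -0.50, so its sign depends on the scaling. Its distance from all genes was 0.16, which a scaling factor can hardly change. This distance lay between 0.12 and 0.16 in the settings that keep all libraries. It was 0.0064 without NT replicate 2, 0.0585 without TAM replicate 2, 0.215 without NT replicate 1 and 0.209 without TAM replicate 1.

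The lowest value was that of MRPS17, a small-subunit protein with a bacterial counterpart, with 79.34 and 57.56 FPKM in NT and 32.66 and 40.87 in TAM libraries (log2 fold change -0.88, SE 0.286, adjusted p = 0.14 by edgeR). MRPS28 (-0.53, SE 0.539) and MRPS25 (-0.44, SE 0.303) came next, and the latter was 0.04 with all its rows summed. The highest were MRPL9 (0.54, SE 0.182, adjusted p = 0.153), MRPS18C (0.46, SE 0.229, adjusted p = 0.334) and MRPS10 (0.46, SE 0.144, adjusted p = 0.128), of which MRPS18C and MRPS10 were at -0.01 with GAPDH as the reference.

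With TPL in both states, 3 members were lower in TAM than in NT cells and 0 higher, against 4.21% lower and 2.83% higher among all genes. The 3 are 3.9% of the members, close to the background. At an unadjusted p under 0.05 there were 12 lower (15.6%, all genes 12.2%) and 2 higher (2.6%, all genes 9.12%), and DESeq2 gave 6 lower (7.79%, all genes 7.86%) and 0 higher (all genes 6.48%). The 3 were MRPS24 (log2 fold change -0.89, SE 0.197, adjusted p = 0.0429 by edgeR), MRPS34 (-0.73, SE 0.146, adjusted p = 0.0299) and MRPS2 (-0.63, SE 0.127, adjusted p = 0.0315). MRPS24 had 84.01 and 114.95 FPKM in NT + TPL against 52.86 and 56.98 in TAM + TPL. Fewer members passed in most fits with 1 library left out, also in those without a TAM library, which is not in the groups compared. The median of the members minus that of all genes was -0.13. It was -0.0374 without NT + TPL replicate 2 and -0.21 without NT + TPL replicate 1.

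The 3 genes named MRPS18 are relatives of 1 bacterial protein, and differences between them were not tested. MRPS18C is the small-subunit counterpart, MRPS18B sits elsewhere in the small subunit and MRPS18A in the large one. With TPL in NT cells MRPS18B rose by 0.47 on the log2 scale, whereas the value of MRPS18A was -0.47 (SE 0.186, adjusted p = 0.0886 by edgeR) and MRPS18C 0.36 (SE 0.229, adjusted p = 0.255). In TAM cells the values were 0.15 (SE 0.131) for MRPS18B, -0.43 (SE 0.184) for MRPS18A and -0.24 (SE 0.228) for MRPS18C, and none of them passed the test.

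RNAPII was present at nearly all of these promoters. Against hg19, the build of the peak lists, with TSSs from GENCODE release 44 placed on that build, the TSS of the canonical transcript lay within a listed peak for 76 of 77 members in NT cells with or without TPL, 76 in TAM cells and 71 once TPL was added to these. Of all 19812 protein-coding genes 47.9, 38.3, 42.2 and 37.5% did. The 71 members in all 4 lists are 92.2%, where all genes had 31.6%. Among the 5284 protein-coding genes with a mean of at least 10 FPKM in NT cells 89.7% were in the NT list, against 69 of the 70 members at that level.

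Few of the members left the lists with TPL. In NT cells 1 of the 76 listed members (1.32%) was not in the list of NT + TPL, against a background of 22.9% of the listed genes and 17.7% of those with at least 10 FPKM. In TAM cells 5 of 76 (6.58%) were not in the list of TAM + TPL, against 19.1% and 13.2%. These are single lists without replicates, heights or read counts, so a gene in a list says that a peak was called and not how much RNAPII was there. The names of the peaks carry another cut-off for TAM than for the other 3 lists, and in each list the name of the first replicate, so the lists may have been called with different settings, and in the comparison with TAM a peak lost with TPL and a difference in settings cannot be told apart.

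The members that were in some lists and not in others were few. MRPL11, a large-subunit protein at the base of the stalk that binds translation factors, was in the NT (chr11:66206088-66206356) and TAM (chr11:66206169-66206361) lists and in neither TPL list. Its mRNA had 29.27 and 22.27 FPKM in NT cells against 28.82 and 36.61 with TPL, while TAM cells had 21.19 and 23.12 against 21.8 and 19.22 with TPL. The log2 fold change was 0.34 (SE 0.207, adjusted p = 0.227 by edgeR) in NT and -0.15 (SE 0.209, adjusted p = 0.598) in TAM cells.

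MRPS26 was listed in NT (chr20:3026219-3027462), NT + TPL (chr20:3026561-3026907) and TAM (chr20:3026403-3026895) and not in TAM + TPL. Its NT peak was 1244 bases wide and its NT + TPL peak 347. MRPL19, MRPL54 and MRPS28 were also absent from the TAM + TPL list alone, though each had a peak within 1 kb of the TSS there. The mRNA of MRPL19, a large-subunit protein with a bacterial counterpart, fell in both states (log2 fold change -1.29, SE 0.191, adjusted p = 0.00305 by edgeR in NT and -0.94, SE 0.187, adjusted p = 0.0103 in TAM), whereas MRPL54, which is found only in mitochondria, had -0.05 (SE 0.246) and -0.06 (SE 0.246). Members absent from a TPL list thus included genes whose mRNA fell and genes whose mRNA did not pass the test.

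MRPS18B was in the NT + TPL list (chr6:30585476-30585692) and in none of the other 3, and its mRNA was among the 4 that rose in NT cells. Within 1 kb of its TSS a peak was also listed in NT and TAM + TPL. With peaks counted within 1 kb, 0 members left the list with TPL in NT cells and 2, MRPL11 and MRPS26, in TAM cells.

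**Figure D4:**
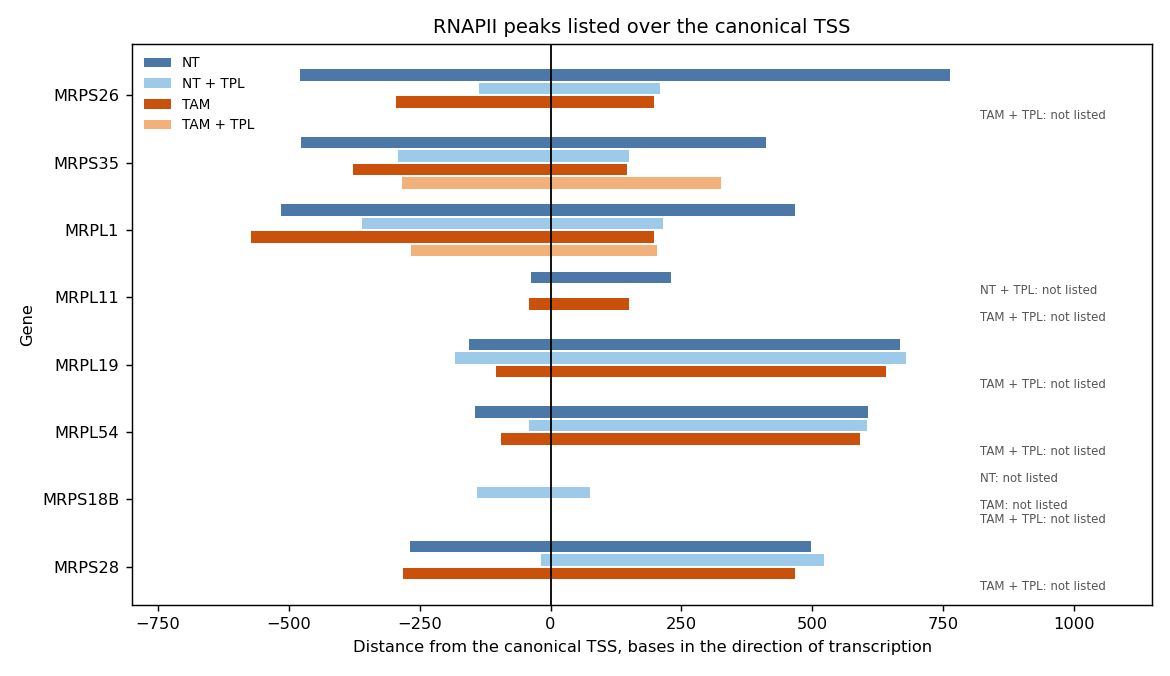
Extent of the listed RNAPII peak over the canonical TSS (x axis, bases from the TSS in the direction of transcription, black line at the TSS) for the 3 largest falls in NT cells and the genes in some lists only, 1 bar per list. The NT bars of MRPS26, MRPS35 and MRPL1 are 1244, 890 and 983 bases wide and their NT + TPL bars 347, 442 and 577. In TAM cells the bar of MRPS35 is 525 bases wide and 609 with TPL, that of MRPL1 771 and 471, and the text at the right marks lists without a peak.

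The promoters of MRPL11 (chr11:66438799-66439098, minus strand) and MRPS18B (chr6:30617590-30617889, plus strand) are printed as those of the genes that were listed without TPL only and in NT + TPL only.
MRPL11: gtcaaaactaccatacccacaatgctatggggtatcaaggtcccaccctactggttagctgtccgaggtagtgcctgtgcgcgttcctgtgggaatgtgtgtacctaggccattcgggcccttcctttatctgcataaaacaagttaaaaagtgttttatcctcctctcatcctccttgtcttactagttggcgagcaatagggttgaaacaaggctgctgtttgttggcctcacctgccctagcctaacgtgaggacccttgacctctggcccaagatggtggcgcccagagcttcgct
MRPS18B: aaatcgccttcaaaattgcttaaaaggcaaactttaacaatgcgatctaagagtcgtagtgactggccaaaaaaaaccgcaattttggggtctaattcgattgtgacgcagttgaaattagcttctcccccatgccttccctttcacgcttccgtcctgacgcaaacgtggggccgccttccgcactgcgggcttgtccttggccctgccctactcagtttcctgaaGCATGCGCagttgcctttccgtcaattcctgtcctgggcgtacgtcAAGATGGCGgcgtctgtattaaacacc
MRPS18B held both the NRF1 letters, from base -23, and the YY1 letters, from base 24, and MRPL11 held none of the 3 motifs as spelled.

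Among the 71 members in all lists the median peak was 803 bases wide in NT cells and 678 with TPL, and 529 in TAM cells and 516 with TPL. The corresponding widths over the 6261 genes in all lists were 798, 682, 516 and 556. With TPL the peak was narrower for 45 of 71 members in NT cells (63.4%, all genes 63.3%) and wider for 45 of 71 in TAM cells (63.4%, all genes 57.3%). The centre of the peak lay at a median of 12.5, 16.5, 27 and 0 bases from the TSS in the order above. With TPL it moved downstream in 36 of 71 members in NT cells (50.7%, all genes 49.1%) and in 38 in TAM cells (53.5%, all genes 52.1%). Widths and shifts of the members were thus close to those of all listed genes.

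Many members shared their promoter region with a neighbour. A protein-coding start on the other strand lay upstream within 1 kb of 26 of 77 members (33.8%), against 9.52% of all protein-coding genes and 16.5% of those in the NT list. MRPL46 and MRPS11, which start 320 bases apart, belong to different subunits. MRPL46, found only in mitochondria, had 14.87 and 12.93 FPKM in NT cells against 4.8 and 10.66 with TPL, while TAM cells had 13.95 and 15.06 against 6.79 and 5.49 with TPL, with log2 fold changes of -0.84 (SE 0.396, adjusted p = 0.138 by edgeR) and -1.29 (SE 0.401, adjusted p = 0.0467). MRPS11, a small-subunit protein with a bacterial counterpart, had 15.52 and 12.82, 14.56 and 15.91, 19.78 and 17.82, and 16.63 and 12.14 FPKM in the same order, with 0.10 (SE 0.215, adjusted p = 0.737) and -0.43 (SE 0.214, adjusted p = 0.158). Both were in all 4 peak lists, and a single peak covered the pair of starts in each TPL list.

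2 pairs with another gene of mitochondria were, like the pair above, singled out after their values were seen. MRPS12 starts 181 bases from SARS2, a mitochondrial tRNA synthetase, and both fell with TPL in NT cells, with log2 changes of -0.77 (SE 0.161, adjusted p = 0.0112 by edgeR) and -1.15 (SE 0.256, adjusted p = 0.0137). MRPL43 starts 46 bases from TWNK, the helicase of mitochondrial DNA. In NT cells TWNK fell (-1.64, SE 0.15, adjusted p = 0.000566) while MRPL43 was at 0.69 and did not pass the test. With both rows of MRPL43 summed its value there was 0.28 (SE 0.189, adjusted p = 0.241). In TAM cells both values were negative, at -1.07 (SE 0.149, adjusted p = 0.00271) for TWNK and -0.57 for MRPL43. Over the 22 pairs of a member and a tested neighbour outside the family, the log2 fold changes with TPL had a Spearman's rho of 0.18 in NT and 0.14 in TAM cells, and 11 and 14 pairs had the same sign. The 2 genes of a pair share their libraries and their start region.

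Of the 77 members 69 had a promoter window in the RefSeq table, and of genes with more than 1 window any was counted. The ETS/GABP letters CCGGAAG were in 30 of 69 members (43.5%) and in 16.5% of 15843 protein-coding genes. The YY1 letters AAGATGGCG were in 13 (18.8%) and in 3.21% of all, and the NRF1 letters GCATGCGC in 6 (8.7%) and in 4.89%. Of the other motifs, GGGCGG (SP/KLF) was in 42 members (60.9%, all genes 64.3%), CCAAT in 23 (33.3%, all genes 42.1%), TATAAA in 3 (4.35%, all genes 12.4%) and TGACGTCA (CRE) in 1 (1.45%, all genes 2.998%). All were sought on both strands, and none of these spellings is contained in another. The ETS, YY1 and NRF1 letters are known from promoters of nuclear genes for mitochondria. The background of these shares was not limited to promoters in use. In the NT peak list were 98.7% of the members and 47.9% of all protein-coding genes. Shares of the motifs among listed genes were not counted.

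The YY1 letters mostly followed the start, with 10 of 14 matches off chromosome 8 beginning at or after it, and counted only upstream of it 3 members held them, against 0.972% of all genes. The ETS/GABP letters mostly preceded it, with 39 of 45 matches before the start, and the median first base of the 45 was -26. Windows of a gene can overlap, and these 45 matches are 40 distinct sites, of which 34 lie before every start they were matched to. The median log2 fold change with TPL was -0.12 in NT and -0.30 in TAM cells among the 30 members with the ETS/GABP letters, and -0.46 and -0.71 among the 39 without. Among the 13 with the YY1 letters it was -0.47 and -0.82, and among the 56 without -0.23 and -0.53. These medians are descriptions, and the differences were not tested.

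**Figure D5:**
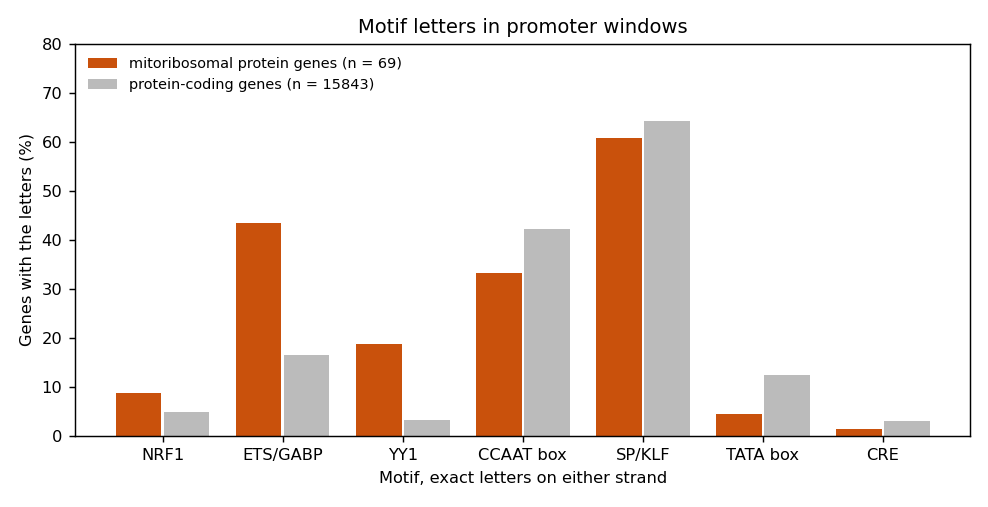
Share of genes with the exact letters of 7 motifs in a promoter window of 300 bases (y axis, %), for 69 mitoribosomal protein genes and 15843 protein-coding genes. The members' bars stand above those of all genes for NRF1, ETS/GABP and YY1 and below them for the other motifs, at 43.5 against 16.5% for ETS/GABP and 18.8 against 3.21% for YY1.

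Genes that work with the mitochondrial ribosome were then set beside it. Of 5 ribosomal proteins named outside the MRP scheme 0 passed an adjusted p of 0.05 with TPL in either state. Of all genes 19.8% were lower and 17.2% higher in NT cells, and 18.6% lower and 14.3% higher in TAM cells, and 5 genes are too few to set against these shares. DAP3, a GTP-binding protein of the small subunit, had 51.86 and 51.11 FPKM in NT cells against 56.62 and 65.82 with TPL, while TAM cells had 56.26 and 60.22 against 65.79 and 70.2 with TPL. Its log2 fold change was 0.25 (SE 0.141, adjusted p = 0.199 by edgeR) in NT and 0.19 (SE 0.141, adjusted p = 0.336) in TAM cells. The median of the 5 was 0.07 in NT and -0.20 in TAM cells.

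The counts in the lists that follow are to be read beside the shares of all genes. These were 19.8% lower and 17.2% higher in NT cells, and 18.6% lower and 14.3% higher in TAM cells. Of 15 mitochondrial translation factors 3 were lower (20%) and 1 higher in NT cells, and 2 lower (13.3%) and 0 higher in TAM cells, close to or below those shares, with medians of 0.01 and -0.25. The 24 genes of mitoribosome assembly and rRNA modification had 6 lower (25%) and 1 higher in NT, and 8 lower (33.3%) and 0 higher in TAM cells, with medians of -0.30 and -0.45. Of 22 genes that charge mitochondrial tRNAs, 10 were lower in NT (45.5%) and 9 in TAM cells (40.9%) and 0 higher in either, with medians of -0.40 and -0.51. They are synthetases, of which GARS1 and KARS1 also serve the cytosol, and GATB, GATC and QRSL1, the subunits of an amidotransferase that completes glutaminyl-tRNA. GARS1, GATC and QRSL1 are among the 10, and QRSL1 among the 9. The 18 genes of mitochondrial transcription and RNA handling had 8 lower in NT (44.4%) and 7 in TAM cells (38.9%) and 0 and 1 higher, with medians of -0.42 and -0.47.

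In that last group POLRMT, the RNA polymerase that transcribes mitochondrial DNA, fell from 26.64 and 26.65 FPKM without to 4.96 and 4.54 FPKM under TPL in NT cells and from 31.2 and 22.68 to 7.93 and 6.83 in TAM cells. Its log2 fold changes of -2.49 (SE 0.191, adjusted p = 0.000348 by edgeR) and -1.92 (SE 0.185, adjusted p = 0.000763) passed the strict thresholds in both states. TFAM, which packages mitochondrial DNA and starts its transcription, fell too, with log2 changes of -1.22 (SE 0.196, adjusted p = 0.00416) in NT and -0.90 (SE 0.191, adjusted p = 0.013) in TAM cells.

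Of 11 nuclear regulators of mitochondrial genes that could be tested, 7 were lower in each state (63.6%) and 0 higher, with medians of -0.89 and -0.70. MYC, which drives growth and ribosome genes, had 532.07 and 622.7 FPKM in NT and 26.77 and 15.04 in NT + TPL (log2 fold change -4.80, SE 0.27, adjusted p = 0.000195 by edgeR), and TAM libraries had 154.18 and 148.16 and, with TPL, 33.99 and 36.26 (-2.15, SE 0.241, adjusted p = 0.00123). PPRC1, a coactivator of respiratory genes, fell past the strict thresholds in NT cells (-1.80, SE 0.188, adjusted p = 0.000883), and ESRRA, an orphan receptor of the same pathway, in TAM cells (-1.64, SE 0.171, adjusted p = 0.000997). NRF1 had -0.23 (SE 0.208, adjusted p = 0.405) in NT and 0.05 (SE 0.206, adjusted p = 0.881) in TAM cells, and GABPA -0.40 (SE 0.186, adjusted p = 0.132) and -0.27 (SE 0.185, adjusted p = 0.296).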

How the data were processed

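From poly-A RNA, the authors mapped reads with Bowtie2 onto transcripts and had RSEM give each gene row an expected count, deposited without normalization, and an FPKM, scaled by length and mapped reads. The deposited peak lists were called by the authors over input with MACS (version 1.4.2 in the submitters' processing notes) on hg19 and kept where they hold a TSS. Their starts and ends carry no score, and how replicates entered is not given in the sources used here. Genes without a read are missing from the tables and were taken as 0. Rows were named from RefSeq by gene ID.

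Expected counts were rounded and fitted with edgeR 4.0.16 (TMM scaling, filterByExpr, the quasi-likelihood test and Benjamini-Hochberg adjusted p over 16948 genes) in R 4.3.3, with the 4 groups in 1 fit. All 77 members passed the filter. A p here measures only the spread between 2 cultures per group. The fit was tested on simulated data with known changes in genes of higher counts. Its dispersion, edgeR's measure of the spread, was set below the common dispersion of the real data, 0.099. That test was therefore easier than the data. The alternatives were DESeq2 1.42.0, other scalings and filters, a replicate block, only the 2 groups compared, limma 3.58.1 on log2(FPKM + 1) and log2(FPKM + 0.1), summed rows and leaving out each library. Same-numbered replicates deviated from their groups with an r between -0.135 and 0.05, so the numbers were not taken as pairs.

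Named genes were those past the strict thresholds, the 5 largest changes each way with TPL and the 3 each way between TAM and NT with DMSO, the 4 smallest interaction p-values, the 3 highest and lowest levels in NT, genes in some peak lists only, the MRPS18 genes, and of other lists the strict calls with POLRMT, TFAM, DAP3, NRF1, GABPA and MYC. The members, the lists and these rules were chosen with earlier results of these data known. The ChIP-Seq signal was not analysed here. Standard errors were derived from the log2 fold change and the F statistic of edgeR's test, whose estimate of the spread is shared by the groups. The libraries held 7461309 to 8349448 counts.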

Additional observations from a re-analysis of the deposited data

How the results depend on the processing

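The counts of falls with TPL depended on thresholds more than on scaling, and a library left out leaves a lone library assumed to vary like the other groups. In NT cells, leave-one-out gave 0 to 8 rises, 13 to 25 falls, 0 strict falls and medians from -0.43 to -0.22. In TAM cells it gave 0 to 1 rises, 12 to 37 falls and 0 to 2 strict falls, and for TAM against NT with TPL 0 to 3 falls and medians from -0.20 to -0.0011.

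Rises in NT cells numbered 10 with upper quartile scaling, 9 with DESeq2 or at least 10 counts in every library, 7 with summed rows and 0 with GAPDH as the reference or only the 2 groups compared, which also gave 16 falls there and 1 rise in TAM cells. Strict falls in NT cells numbered 6 with DESeq2 or summed rows, 5 with at least 10 counts, 1 with upper quartile and 0 with 2 groups. In TAM cells they numbered 12 with summed rows, 11 with DESeq2, 9 with at least 10 counts, 6 without a filter, 5 with limma on log2(FPKM + 1), 1 with upper quartile, and 0 with GAPDH or 2 groups. Upper quartile gave 21 falls in TAM cells and medians of -0.0628 (NT) and -0.38 (TAM). With GAPDH the medians were -0.62 with TPL in NT cells, -0.33 and -0.39 for TAM against NT without and with TPL, and -0.0302 for the difference of the TPL effects, and 2 members were lower in TAM than NT cells with DMSO. DESeq2 gave 2 higher and 1 lower there, and 6 lower with TPL, where 2 groups gave 0. With DESeq2 the 9 rises in NT cells were 11.7% of the members, where 20.9% of all genes rose. Shares of all genes were counted for the main fit and DESeq2 only. Whether the counts under the other settings moved more than those of all genes was thus not tested, and neither was the cause.

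With replicate number as a block, rises in NT cells numbered 2, strict falls 0 in both states and falls in TAM against NT with TPL 1. It left 24 falls in NT and 35 in TAM cells. The replicate numbers do not pair the samples by the check above.

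Signs changed with summed rows for MRPL48 with TPL in TAM cells (-0.20) and MRPS25 in TAM against NT with DMSO (0.0397), and there with GAPDH for MRPS18C (-0.0127) and MRPS10 (-0.0114). MRPL48 with TPL in TAM cells ranged from -0.995 to 1.07 with a library left out. Peaks within 1 kb left 0 members lost in NT and 2 in TAM cells, and the YY1 letters were in 3 members upstream of the start. Of 615 refits of named genes, 571 kept direction and side of the threshold, 19 were weaker, 20 stronger and 5 reversed. Of 514 values of counts, medians, peaks and motifs under the alternatives, 435 stayed within the margin set for them and 79 moved. The depth behind the peak lists is unknown.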
